A study of Mus musculus with 5 samples.

Results

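Antigen presentation genes of the major histocompatibility complex (MHC) were described in RNA-seq of haematopoietic stem cells (HSCs) sorted from mouse bone marrow. The genes were chosen by name, as B2m, H2-K1, H2-D1, Tap1, Tapbp, Psmb8, Psmb9, Cd74, H2-Ab1 and H2-Aa. Of these 10 genes, 7 were found among the 11643 genes of the table and all 7 were tested; H2-D1, Tapbp and Cd74 were not analysed here. The libraries of interest were 2 labelled Tle1/3/4-deficient, from C57BL/6 mice with floxed alleles of Tle1, Tle3 and Tle4 and the Vav-Cre recombinase, which is active throughout the blood system and so is not confined to HSCs. They were set against 3 control libraries of the same strain background, whose floxed alleles the labels do not give; their titles carry names beginning with VavC, which the labels do not explain, so their Cre status is uncertain. The sort in every library kept cells without lineage markers that carried c-Kit, Sca-1 and CD150 on their surface and lacked CD48; no age or sex was used here. Whether each library is a separate animal is not in the labels, and the spread behind the p-values may therefore be technical. TLE proteins are co-repressors that partner factors bring to DNA, and the comparison asks what changes in HSCs when Tle1, Tle3 and Tle4 are deleted.

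MHC class I molecules display peptides from the cell's own cytosol to CD8 T cells and NK cells, on nearly every nucleated cell. A heavy chain such as H2-K1 pairs with B2m, while the proteasome cuts the peptides, the TAP transporter moves them into the endoplasmic reticulum and the loading complex fits them. MHC class II molecules, pairs of an alpha and a beta chain such as H2-Aa and H2-Ab1, display peptides from endocytosed material to CD4 T cells, and are best known from B cells, dendritic cells and macrophages. Both classes are raised by interferon-gamma, and their promoters carry related elements that include an X2 box and a CCAAT-type Y box.

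The promoters are shown because most hold matches to both elements, and because Tap1 and Psmb9 are read from opposite strands of the same stretch. Sequences are the 250 bases before the gene's start from RefSeq (build GRCm38.p6, which is not the mm9 build of the expression table), found for 6 of the 7 genes; H2-Ab1 had no entry. Capitals mark CCAAT, the core of a Y box, on either strand. They also mark TGACG, the core of an X2 box, on either strand. In B2m they mark as well a GAAA repeated after a gap of 2 bases, the core of an interferon-stimulated response element. B2m lies at chr2:122147437-122147686 on the plus strand, H2-K1 at chr17:34000348-34000597 on the minus strand, Tap1 at chr17:34187306-34187555 on the plus strand and H2-Aa at chr17:34287824-34288073 on the minus strand.
B2m: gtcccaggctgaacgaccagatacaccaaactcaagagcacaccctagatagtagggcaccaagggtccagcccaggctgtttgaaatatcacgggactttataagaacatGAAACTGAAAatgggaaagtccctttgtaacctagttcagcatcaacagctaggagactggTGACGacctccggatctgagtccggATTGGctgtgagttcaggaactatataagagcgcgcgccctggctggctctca
H2-K1: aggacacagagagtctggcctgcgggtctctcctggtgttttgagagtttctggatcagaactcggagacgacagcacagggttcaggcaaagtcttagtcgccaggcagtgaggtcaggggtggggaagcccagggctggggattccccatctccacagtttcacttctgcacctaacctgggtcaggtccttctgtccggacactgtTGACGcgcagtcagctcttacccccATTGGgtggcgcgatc
Tap1: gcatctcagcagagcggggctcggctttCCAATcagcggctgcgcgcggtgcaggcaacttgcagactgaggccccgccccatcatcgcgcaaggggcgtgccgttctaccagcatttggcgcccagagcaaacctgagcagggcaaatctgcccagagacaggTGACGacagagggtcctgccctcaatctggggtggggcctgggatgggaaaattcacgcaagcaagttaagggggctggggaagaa
H2-Aa: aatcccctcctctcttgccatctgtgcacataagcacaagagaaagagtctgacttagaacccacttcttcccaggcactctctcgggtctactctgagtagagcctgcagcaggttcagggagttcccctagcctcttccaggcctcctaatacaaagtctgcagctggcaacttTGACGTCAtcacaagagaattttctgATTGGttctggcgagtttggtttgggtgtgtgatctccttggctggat
Searched on both strands, CCAAT and TGACG stood together in 5 of the 6 promoters, Psmb8 being the exception, against 6.12% of all 32851 windows of the same length. TGACG came before CCAAT with 20 bases between them in B2m, 20 in H2-K1 and 18 in H2-Aa, and a gap of at most 40 bases in that order occurred in 1.79% of all windows. The GAAA repeat was found in the B2m window, and in 2.98% of all windows. The windows of Tap1 and Psmb9 share 225 bases in opposite orientation, so their matches are the same letters; for H2-K1, with 2 listed starts, the first was used. CTTTGA, the core that TCF factors read, was found in H2-Aa, where it overlaps TGACG, and in 13.8% of all windows. TGTGGT, the core that RUNX factors read, was found in none of the 6 windows and in 14.0% of all windows. TTCNNNGAA, the core of a STAT site, was found in Psmb8 and in 7.02% of all windows. These matches describe letters only.

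Values are in FPKM, fragments scaled to transcript length and library total, so levels of different genes can be set side by side. Column sums ranged from 599137 to 683822 FPKM, and total reads are unknown. Tle3, a targeted gene, ran counter to its label, at 32.3 and 31.6 FPKM in the libraries labelled deficient, against 2.48, 4.97 and 5.61 FPKM in the controls. Tle1 was at 2.84 and 4.37 FPKM, against 1.83, 0.811 and 3.33 FPKM in controls, and Tle4 at 0.353 and 0.203 FPKM, against 5.67, 0.0129 and 5.29 FPKM. A gene-level value includes exons outside the floxed part, so it does not show whether that part was lost. The cause of the higher Tle3 was not tested, the labels could not be checked, and every direction given here follows the labels. The gate's genes Kit and Slamf1 were expressed in all 5 libraries. Kit was at 102.3 and 101.6 FPKM in replicates 1 and 2 labelled deficient, below every control (149 to 185 FPKM), and Slamf1 lay above every control. Ly6a, which encodes Sca-1, was at 155 and 14.05 FPKM in replicates 1 and 2 labelled deficient, against 57.8 to 199 FPKM in controls. Cd48, whose product the gate excludes, was at 7.19 and 23.4 FPKM in those replicates, against 3.22 to 13.01 FPKM in controls. Of 10 gate and HSC genes, 8 had negative and 2 positive differences. In 4 of them both libraries labelled deficient lay below every control, and in 1 above. The 9 neutrophil markers with a row made up 1.58% and 10.9% of all FPKM in replicates 1 and 2 labelled deficient, against 0.0466% to 0.405% in the controls. Whatever a few genes take of the total lowers all other FPKM of that library. In such bulk samples, fewer cells of a type and less RNA per cell cannot be told apart.

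B2m and H2-K1 were among the most abundant transcripts of these HSCs, 5th and 39th by the mean over 5 libraries, and the immunoproteasome subunits ranked 197th and 282nd. Tap1 (1007th) and the class II chains (1882nd and 1959th) stood far lower. By that mean, B2m stood at 5527 FPKM, H2-K1 at 2078, Psmb8 at 427, Psmb9 at 316, Tap1 at 103, H2-Ab1 at 56.2 and H2-Aa at 53.9 FPKM. B2m lay above H2-K1, H2-K1 above Psmb8, and Psmb9 above Tap1 in every library with no overlap of their ranges. Psmb8 and Psmb9, Tap1 and H2-Ab1, and H2-Ab1 and H2-Aa overlapped. By rank among all genes, B2m was 1st and 8th in the libraries labelled deficient, against 9th, 16th and 6th in the controls.

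**Figure D1:**
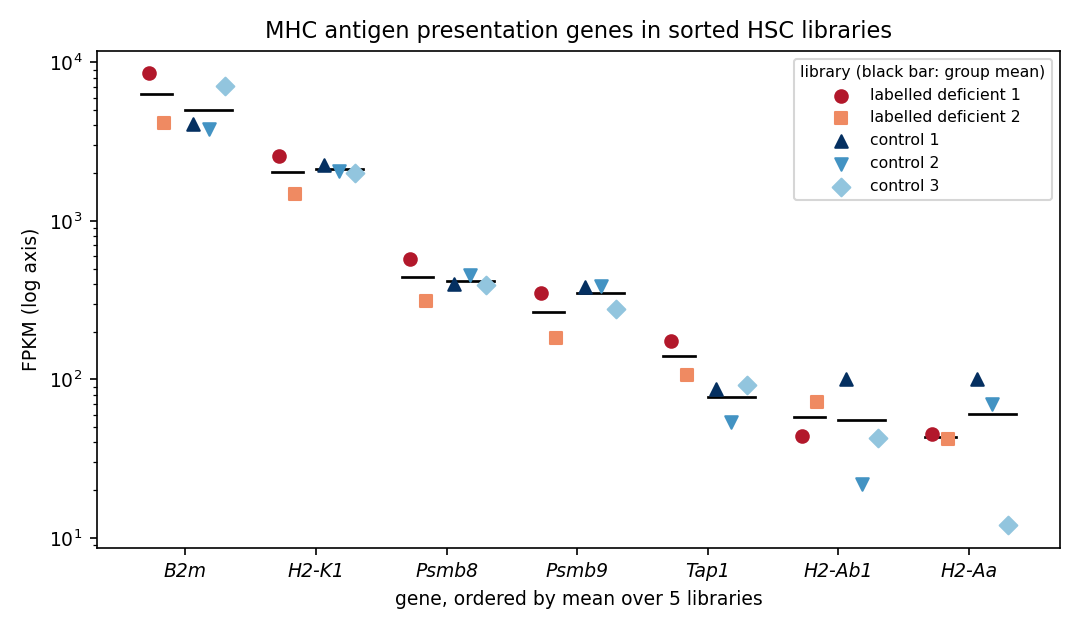
FPKM of the 7 genes (log axis) in each library, libraries labelled deficient to the left of controls within each gene, with black bars at group means. Tap1 is the gene whose values labelled deficient, 175 and 106 FPKM, both lie above every control, the highest of which is at 92.5 FPKM.

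None of the 7 genes passed the threshold of an adjusted p of 0.05 over all 10570 tested genes (limma on log2(FPKM + 1)), where 2 genes, or 0.0189%, did. Nor did any pass an unadjusted p of 0.05, where 8.45% of all tested genes did. Tap1 came nearest, at 0.0529, and was under 0.05 in 5 of 15 alternatives, while Psmb9 and H2-Aa were so in 1 each. Differences are given on the log2(FPKM + 1) scale, labelled deficient minus control. The median difference of all tested genes was -0.10, with 4682 positive and 5888 negative.

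B2m, the light chain of every class I molecule, was at 8532 and 4121 FPKM in the libraries labelled deficient, against 4088, 3813 and 7081 FPKM in the controls. Labelled-deficient replicate 1 and control replicate 3 stood high, and the groups overlapped. The difference was 0.31 (SE 0.44, 95% interval -0.72 to 1.33, limma adjusted p = 0.872), and it was -0.22 without labelled-deficient replicate 1 and 0.88 with quantile normalization. H2-K1, a classical heavy chain, was at 2586 and 1470 FPKM in the libraries labelled deficient, against 2262, 2059 and 2015 FPKM in the controls. The 3 controls lay within a 1.12-fold range, with labelled-deficient replicate 1 above and replicate 2 below all of them. Its difference was -0.11 (SE 0.32, interval -0.86 to 0.63, adjusted p = 0.942), and 0.29 without labelled-deficient replicate 2. In the GENCODE transcripts, 8.79% of the 50-base stretches of H2-K1 also occur in other genes, H2-D1 the most often. How reads from such stretches were assigned is not given in the sources used here, and the level of H2-K1 is uncertain for that reason. The other 6 genes had at most 0.861% shared, in Tap1 with Tap2.

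Tap1, one chain of the TAP peptide transporter, was at 175 and 106 FPKM in the libraries labelled deficient, against 86.9, 53.6 and 92.5 FPKM in the controls. Both libraries labelled deficient lay above every control, which held for 10.2% of all tested genes. The means were 141 ± 49.1 FPKM in the libraries labelled deficient and 77.7 ± 21.01 FPKM in the controls (SD, n = 2 and 3). The difference of 0.84 (SE 0.37, 95% interval -0.013 to 1.70) did not pass (limma adjusted p = 0.591), and it was positive under every alternative run, from 0.48 to 1.20 as single libraries were left out. Tap2, the other chain of the transporter and chosen here after its values were seen, was at 94.6 and 121 FPKM in the libraries labelled deficient, against 164, 134 and 108 FPKM in the controls. Its difference was -0.32 (SE 0.30, adjusted p = 0.783), and its groups overlapped.

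Psmb8, a catalytic subunit that replaces a constitutive one in the immunoproteasome, was at 578 and 311 FPKM in the libraries labelled deficient, against 402, 453 and 391 FPKM in the controls. The values labelled deficient lay on either side of all 3 controls, with a difference of 0.031 (SE 0.31, interval -0.70 to 0.76, adjusted p = 0.983). It was -0.42 without labelled-deficient replicate 1 and -0.010 without control replicate 3. Psmb9, the second such subunit, was at 353 and 182 FPKM in the libraries labelled deficient, against 384, 387 and 277 FPKM in the controls. Labelled-deficient replicate 2 was the lowest of the 5 and replicate 1 lay inside the control range. Its difference was -0.44 (SE 0.35, interval -1.25 to 0.36, adjusted p = 0.737), and 0.033 without labelled-deficient replicate 2.

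H2-Ab1, the beta chain, was at 43.7 and 71.5 FPKM in the libraries labelled deficient, against 101, 21.9 and 42.9 FPKM in the controls. H2-Aa, the alpha chain, was at 45.1 and 41.98 FPKM in the libraries labelled deficient, against 99.9, 70.3 and 12.0 FPKM in the controls. In both genes the values labelled deficient lay inside the range of the controls, which spanned 4.61-fold for H2-Ab1 and 8.32-fold for H2-Aa. The differences were 0.28 (SE 0.61, interval -1.14 to 1.71) and -0.029 (SE 0.81, interval -1.91 to 1.85), with adjusted p = 0.925 and 0.995 by limma. These intervals are the widest of the 7 genes. The sign for H2-Ab1 turned without labelled-deficient replicate 2 (-0.067) or control replicate 2 (-0.23). That for H2-Aa turned without labelled-deficient replicate 2 (0.022), control replicate 1 (0.55) or control replicate 2 (0.30).

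Markers of other cell types that the gate could hold were looked up beside these chains, first those of cells that carry class II. Of 13 B-lineage markers 5 had a row, summing to 70.4 and 269 FPKM in replicates 1 and 2 labelled deficient, against 105 to 122 FPKM in the controls. The most abundant were the surface protein Cd37, at 49.3 and 121 FPKM in the libraries labelled deficient, against 59.4, 56.6 and 72.3 FPKM in the controls, and the B cell receptor chain Cd79b, at 16.4 and 68.2 FPKM, against 59.5, 42.6 and 44.9 FPKM. In both, replicate 1 labelled deficient was the lowest and replicate 2 the highest library. Of 15 monocyte and macrophage markers 12 had a row, summing to 823 and 3681 FPKM in the libraries labelled deficient, against 425 to 584 FPKM in the controls. The most abundant were the lysozyme gene Lyz2, at 646 and 2759 FPKM, against 431, 409 and 508 FPKM in the controls, and Ly6c2, at 87.3 and 670 FPKM, against 0.888, 6.59 and 34.2 FPKM. Both libraries labelled deficient lay above every control in 9 of the 12, against 10.2% of all tested genes. The same held for all 9 neutrophil markers, and monocyte and neutrophil signals were not told apart here.

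Of 14 dendritic cell markers 6 had a row, summing to 245 and 111 FPKM in the libraries labelled deficient, against 228 to 312 FPKM in the controls. The most abundant were Bst2, at 217 and 70.5 FPKM in the libraries labelled deficient, against 192, 185 and 216 FPKM in the controls, and the transcription factor Tcf4, at 16.6 and 9.03 FPKM, against 8.18, 34.1 and 62.8 FPKM. Of the 5 tested, 1 had a positive and 4 a negative difference. Defining markers at or near 0, chosen after their values were seen, differed by library. Cd79a was at 0 and 38.5 FPKM in replicates 1 and 2 labelled deficient, against 0, 6.12 and 4.10 FPKM in the controls. Vpreb1, also of the B lineage, was at 4.70 and 37.1 FPKM, against 0, 0 and 0.0794 FPKM in the controls. It was the only 1 of the 4 tested B-lineage markers with both libraries labelled deficient above every control. Csf1r was at 1.73 and 11.3 FPKM in the libraries labelled deficient, and at 0.0177 to 0.0320 FPKM in the controls. Zbtb46 was listed at 0 in the libraries labelled deficient and at 3.38 to 5.07 FPKM in the controls, Clec9a at 0 in 4 of 5 libraries, and Irf8 at 0.0441 and 19.4 FPKM, against 0.0738, 0.0890 and 5.37 FPKM in the controls. Of 12 T and NK cell markers, of cells not known for class II in mice, 3 had a row, summing to 349 and 197 FPKM in the libraries labelled deficient, against 34.1 to 105 FPKM in the controls. Nearly all of that sum was Nkg7, a granule protein gene, at 345 and 193 FPKM, against 41.2, 105 and 34.005 FPKM in the controls; Klrb1c was at 3.16 and 2.21 FPKM, and at most 0.0727 FPKM in the controls. The part of any of these cells in the levels of the 7 genes was not tested.

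The class I pathway genes also differed between the 2 libraries labelled deficient. All 5 class I pathway genes were higher in labelled-deficient replicate 1 than in replicate 2, by 2.07-fold for B2m, 1.94-fold for Psmb9, 1.86-fold for Psmb8, 1.76-fold for H2-K1 and 1.66-fold for Tap1. A ratio of at least 1.5 was seen in 31.8% of the 9658 tested genes above 0 in both libraries. After median-of-ratios scaling that share was 26.5%, and the 5 ratios were 1.87, 1.75, 1.68, 1.59 and 1.49 in the same order. Neither class II gene had such a ratio, at 0.610 for H2-Ab1 and 1.07 for H2-Aa. With 1 library on each side, the split has no replicate check. Replicate 2 is also the library with the higher neutrophil marker share and the lower Ly6a, whose part in the split was not tested.

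Some genes with related roles split likewise and others did not. The same ratio was reached by 6 of 6 other class I or class I-like chains above 0 in both libraries and by 3 of 4 other immunoproteasome and proteasome activator genes. H2-Q10, a class I chain outside that count, split the other way, listed at 0 and 23.4 FPKM in replicates 1 and 2 labelled deficient, against 0, 0 and 0.0350 FPKM in the controls. The ratio was reached by 1 of 10 genes of peptide supply and loading, by 2 of 10 other class II genes and by 5 of 17 regulators. Over all other pathway genes above 0 in both libraries, 18 of 48 reached the ratio, or 37.5%. That share lies near the 31.8% of all tested genes above 0 in both. Psmb7, a constitutive catalytic subunit, reached it too, at 1.76, and at 1.58 after median-of-ratios scaling. After median-of-ratios scaling 5 of the 6 chains reached it, H2-T23 being at 1.37, and the counts in the other 4 lists were equal to those given. H2-T23, a non-classical heavy chain, was at 467 and 308 FPKM in replicates 1 and 2 labelled deficient, against 527, 555 and 322 FPKM in the controls. Psme1, a subunit of the proteasome activator, was at 632 and 356 FPKM, against 359, 610 and 537 FPKM in the controls. Psmb10, the third immunoproteasome subunit and chosen after its values were seen, was at 255 and 88.5 FPKM in replicates 1 and 2 labelled deficient, against 174, 150 and 140 FPKM in the controls.

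**Figure D2:**
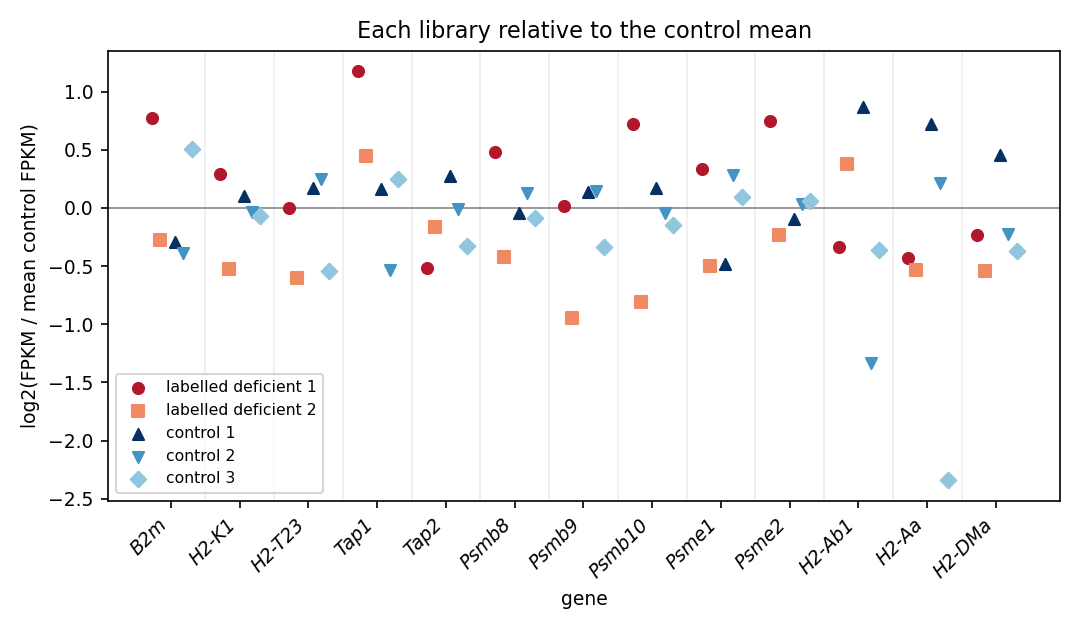
Log2 ratio of each library's FPKM to the control mean, for the 7 genes and 6 related ones, libraries labelled deficient to the left of controls. For H2-K1, Psmb8, Psmb10, Psme1 and Psme2, labelled-deficient replicate 1 lies above and replicate 2 below all 3 controls.

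Ratios within a library do not depend on its total, and are given with no test because all but the class II ratio were chosen after the values were seen. Tap1 stood at 0.497 and 0.583 of Psmb9 in the libraries labelled deficient, against 0.226, 0.139 and 0.334 in the controls. The mean log2 ratio was -0.89 ± 0.16 in the libraries labelled deficient and -2.18 ± 0.63 in the controls (SD, n = 2 and 3). The groups did not overlap in this ratio, and Tap1 alone already lay above every control in both libraries labelled deficient. Tap1 and Psmb9 share the promoter stretch printed above, whose part in the ratio was not tested. Tap1 stood at 1.85 and 0.877 times Tap2 in the libraries labelled deficient, against 0.531, 0.399 and 0.855 times in the controls, the nearest pair of values being almost level. Psmb8 stood at 1.64 and 1.71 times Psmb9 in the libraries labelled deficient, against 1.05, 1.17 and 1.41 times in the controls. Psmb5, the planned partner of Psmb8, was not analysed here, and Psmb8 was set against another constitutive subunit, Psmb7, where the order was the other way. Psmb8 stood at 3.02 and 2.85 times Psmb7 in the libraries labelled deficient, against 5.23, 3.77 and 3.08 times in the controls. The groups did not overlap, but the nearest values, 3.02 and 3.08, were almost level. H2-K1 stood at 0.303 and 0.357 of B2m in the libraries labelled deficient, against 0.553, 0.540 and 0.285 in the controls, so that control replicate 3 lay with both libraries labelled deficient. H2-DMa stood at 1.83 and 1.59 times H2-Aa in the libraries labelled deficient, against 1.33, 1.18 and 6.25 times in the controls, with overlap. The class II chains did not keep a fixed ratio, H2-Aa standing at 1.03 and 0.587 times H2-Ab1 in the libraries labelled deficient, against 0.991, 3.21 and 0.280 times in the controls.

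**Figure D3:**
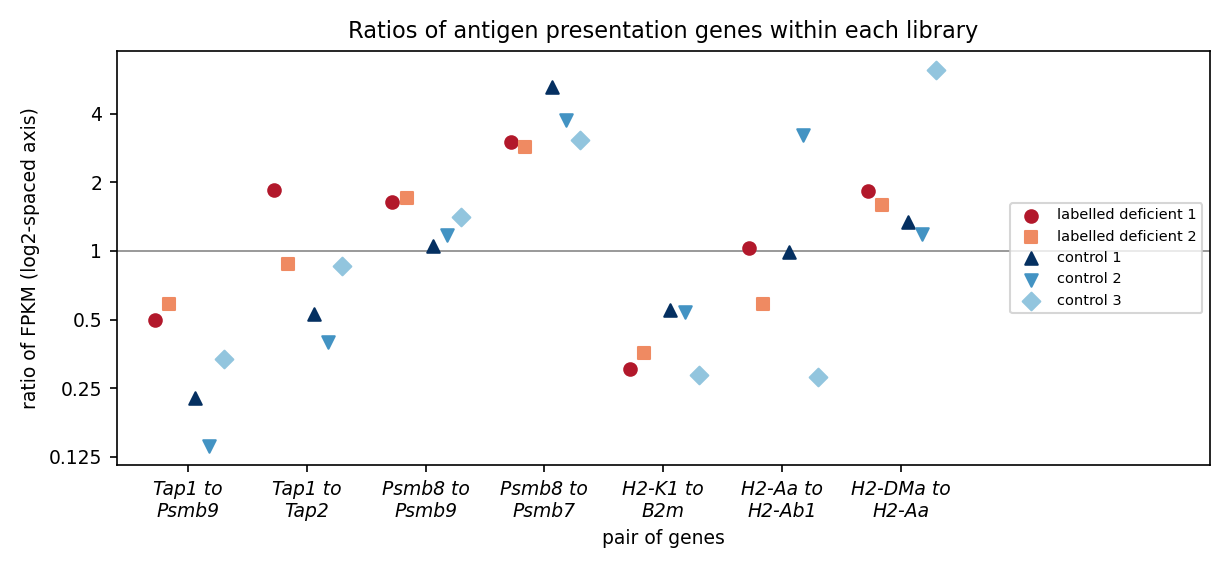
Ratio of FPKM between pairs of genes in each library (log2-spaced axis), libraries labelled deficient to the left of controls. Tap1 to Psmb9 is at 0.497 and 0.583 in the libraries labelled deficient, and at most 0.334 in the controls, while Psmb8 to Psmb7 runs lower, at 3.02 and 2.85 against 3.08 or more in the controls.

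The rest of the pathway was covered by a list of 79 further symbols, of which 58 had a row and 56 were tested. None passed over all genes (limma), and 4 of the 56 had an unadjusted p under 0.05, against 8.45% of all tested genes. Differences were positive in 27 and negative in 29, with a median of -0.010, against 4682 positive and 5888 negative over all tested genes. Both libraries labelled deficient lay above every control in 5 of the 56 and below every control in 5, against 10.2% and 15.9% of all tested genes. None of the 7 tested class I and class I-like chains passed, with 2 differences positive, 5 negative and a median of -0.29. Cd1d1, which presents lipids, was at 51.4 and 25.4 FPKM in the libraries labelled deficient, against 45.8, 55.1 and 36.3 FPKM in the controls. Peptide supply and loading had 9 positive and 1 negative of 10, with a median of 0.24, and none passed. Its most abundant genes were the disulphide isomerase Pdia3, at 309 ± 12.4 FPKM in the libraries labelled deficient and 307 ± 51.9 FPKM in the controls, and the chaperone Hspa5, at 253 ± 51.3 and 227 ± 49.2 FPKM (SD, n = 2 and 3). Of the 5 other immunoproteasome and activator genes 2 had positive and 3 negative differences, with a median of -0.036. Pomp, the proteasome assembly factor, was at 297 ± 71.3 FPKM in the libraries labelled deficient and 283 ± 42.3 FPKM in the controls. Psmb7, a constitutive catalytic subunit, was at 192 and 109 FPKM in the libraries labelled deficient, against 76.8, 120 and 127 FPKM in the controls.

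Among 13 other class II genes, 6 had positive and 7 negative differences, with a median of -0.0010, and none passed. Ctsd, a lysosomal protease, was at 216 ± 22.5 FPKM in the libraries labelled deficient and 219 ± 13.9 FPKM in the controls. H2-DMa, a chain of the peptide exchange factor for class II, was at 74.6 ± 11.1 and 97.2 ± 31.6 FPKM (SD, n = 2 and 3). Those with the lowest p, chosen after their values were seen, lay in opposite directions. Lgmn, a lysosomal protease, was at 10.9 and 19.02 FPKM in the libraries labelled deficient, against 0.0390, 0.176 and 3.03 FPKM in the controls (limma adjusted p = 0.439). H2-Oa, a chain of the inhibitor of H2-DM, was at 0 and 6.11 FPKM, against 31.3, 15.9 and 18.02 FPKM in the controls (adjusted p = 0.439).

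Of the 20 regulators 7 had positive and 13 negative differences, with a median of -0.36, and none passed. Spi1, a myeloid and B-lineage transcription factor, was at 114 and 255 FPKM in the libraries labelled deficient, against 157, 79.6 and 109 FPKM in the controls. Ifngr1, a chain of the interferon-gamma receptor, was at 46.8 and 101 FPKM in the libraries labelled deficient, against 106, 76.5 and 68.5 FPKM in the controls. The 2 with an unadjusted p under 0.05 lay in opposite directions, and were, like Rfx5 and Ciita, picked with their values known. Nlrc5, the transactivator of class I genes, was listed at 0 and at 7.04 FPKM in the libraries labelled deficient, against 31.04, 30.1 and 13.7 FPKM in the controls. Both values lay below every control, and the adjusted p was 0.439. Nfkb1, a subunit of NF-kappaB, was at 56.2 and 43.7 FPKM in the libraries labelled deficient, both above every control, against 25.2, 24.9 and 32.6 FPKM in the controls (limma adjusted p = 0.585). Rfx5, which binds the X box of both classes, was at 9.13 and 2.45 FPKM, against 14.8, 16.4 and 15.1 FPKM in the controls (limma adjusted p = 0.591). Ciita, the transactivator of class II genes, was listed at 0 and 0.0485 FPKM in the libraries labelled deficient, against 9.91, 0 and 0 FPKM in the controls. An exact 0 in such a table can be a failed estimate, and no fold is given against one.

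**Figure D4:**
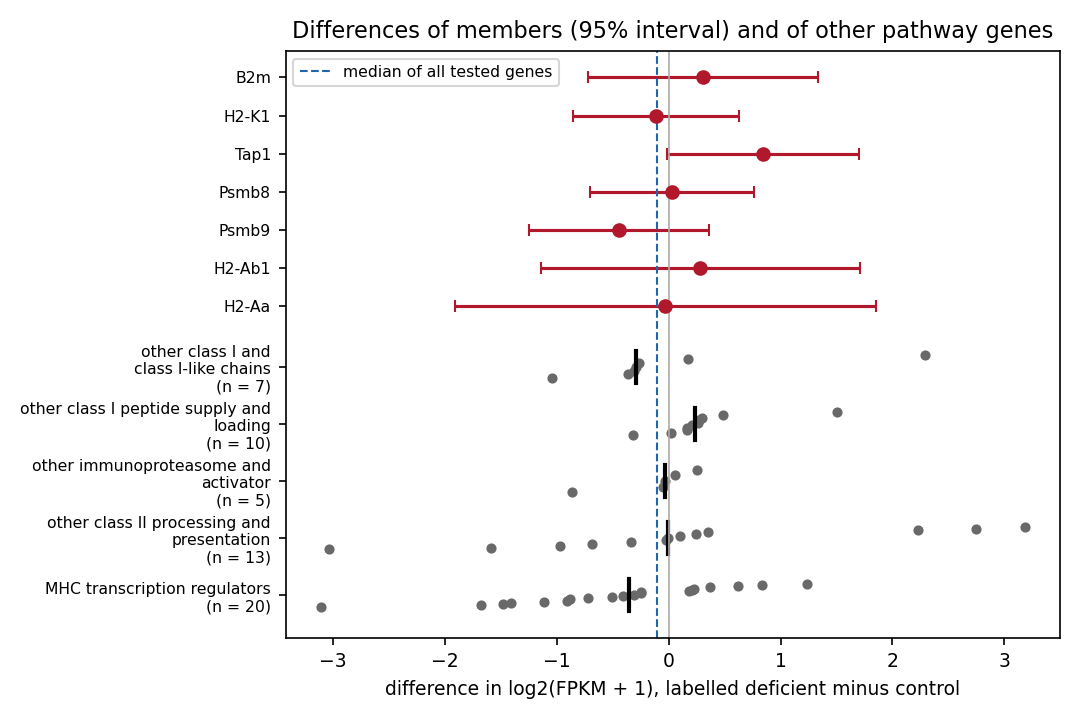
Difference in log2(FPKM + 1), labelled deficient minus control, for the 7 genes with 95% intervals and for other tested pathway genes as points with a black bar at each list's median; the dashed line is the median of all tested genes, -0.10. The interval of Tap1, from -0.013 to 1.70, reaches 0, as do those of the other 6.

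By Euclidean distance over the 5 libraries between gene-centred log2(FPKM + 1) values, among 6316 genes, the profiles nearest to the mean of the 5 class I pathway genes were those of Nmi (0.086), an interferon-inducible partner of STAT and MYC proteins, Ndufa7 (0.115), a subunit of respiratory complex I, and Coil (0.119), a Cajal body protein. The 5 genes themselves lay at 0.315 to 0.919 from their own mean. Nmi was at 62.5 and 32.3 FPKM in the libraries labelled deficient, against 39.7, 36.3 and 43.0 FPKM in the controls. Nearest to the class II mean were Foxred1 (0.452), Zfp959 (0.466) and Alg3 (0.468), while H2-Ab1 and H2-Aa each lay at 1.25 from it.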

How the data were processed

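RNA-seq of sorted HSCs gave 5 libraries, 2 labelled Tle1/3/4-deficient and 3 control, with groups and replicate numbers from the sample titles. The authors deposited FPKM for each gene symbol. The submitters' processing notes list mm9, TopHat and edgeR, without a version or role. For the annotation and any filter, the sources used here give nothing.

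The 10570 genes averaging 1 FPKM or more were tested on log2(FPKM + 1), which understates changes of low genes, with limma 3.58.1 in R 4.3.3 (eBayes with trend, no covariates, two-sided, Benjamini-Hochberg over all tested genes, threshold 0.05). The test was checked on simulated data. The genes and lists were chosen with earlier results of these data known. Of each list, members past the threshold, otherwise the 2 most abundant, are named; others are said to be chosen afterwards. One cell type marker is not reported here. The 3 nearest profiles were sought among tested genes averaging 10 FPKM or more and above 0 in every library; the class profiles used the 5 and 2 genes with a row. Ratios with Psmb5, Psmb6 or H2-D1 were not computed, as those genes were not analysed here. Relative depth, estimated from the commonest ratio of values under 0.3 FPKM within 0.5%, was 1.11 and 1.28 in replicates 1 and 2 labelled deficient, and 1, 1.11 and 1.46 in control replicates 1 to 3; it rests on 8 to 36 genes a library, so no counting interval is given. Alternatives covered the pseudocount, filter, scaling, eBayes settings, array weights, replicate block, threshold and leaving out each library. Sequences and plots were made in Python 3.11.15 (matplotlib 3.10.9, pandas 2.3.3, scipy 1.17.1).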

Additional observations from a re-analysis of the deposited data

How the results depend on the processing

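None of the 7 genes passed in any of 15 alternatives, with adjusted p of 0.401 or more (limma), nor did any other pathway gene. Only Tap1 kept its direction in all 15. Beyond leaving out libraries, the sign turned with median-of-ratios scaling for H2-K1 (0.015) and H2-Aa (0.096), and with array weights for H2-Aa (0.55). It also turned with quantile normalization for Psmb8 (-0.073) and H2-Aa (0.045). The cause of these turns was not tested. In the replicate block, control replicate 3 had no same-numbered library labelled deficient. The differences of the 7 genes with that block therefore equal those without control replicate 3 (-0.010 for Psmb8), and are no separate check. With the sign kept, values moved by over 1.5 times for B2m with quantile normalization (0.88), the replicate block (0.59) and array weights (0.13), for H2-K1 with quantile normalization (-0.065), for Psmb8 with median-of-ratios scaling (0.16) and array weights (0.054), and for H2-Aa with the replicate block (-0.93) and pseudocounts of 0.1 and 0.01 (-0.013 and -0.011). The unadjusted limma p of Tap1 was 0.0242 with median-of-ratios scaling, 0.0387 with quantile normalization, 0.0475 with robust fitting, 0.0345 with the replicate block and 0.0358 without labelled-deficient replicate 2; that of Psmb9 was 0.0287 without labelled-deficient replicate 1 and that of H2-Aa 0.0443 without control replicate 3. As single libraries were left out, differences ranged from -0.22 to 0.83 for B2m, -0.52 to 0.29 for H2-K1, -0.42 to 0.48 for Psmb8, -0.92 to 0.033 for Psmb9, 0.48 to 1.20 for Tap1, -0.23 to 0.84 for H2-Ab1 and -0.93 to 0.55 for H2-Aa. Where 1 library labelled deficient was left, it was assumed to vary like the controls. Of all tested genes 2 passed; 5 did at a threshold of 0.1, 0 with a pseudocount of 0.1 (864 at an unadjusted p under 0.05), 0 with a pseudocount of 0.01 (826), 0 without a filter (1004), 4 with median-of-ratios scaling, 3 with quantile normalization, 1 without trend, 5 with robust fitting, 0 with array weights (839), and 0 to 2 as single libraries were left out. With the replicate block 22 passed; same-numbered libraries deviated together little (correlations of 0.035 and 0.0069 across genes), so the numbers were not taken as pairs. Median-of-ratios scaling moved the median difference of all genes from -0.10 to 0.014. Unknown read totals limit what can be said of values near 0.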
